A study of Caenorhabditis elegans with 2 samples.

Results

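Homeobox genes outside the LIM class encode transcription factors that bind DNA through a homeodomain, and they were examined here as possible places of recovery of a LIM homeodomain factor, LIN-11, in late Caenorhabditis elegans embryos. The set held 86 genes of the 19973 protein-coding genes on nuclear chromosomes of WBcel235. Of these, 62 carry the name ceh- with a number (ceh-14, a LIM gene, was left out), and 24 carry other names, such as the Hox genes lin-39 and mab-5. One of the named genes, hbl-1, encodes a Hunchback-like zinc finger protein and is not a homeobox gene, so its values are named as such. The rule goes by gene name and uses no value of these data. Its members were, however, chosen with earlier results of these data known.

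The series had 1 group of 2 biological replicates. The worms were of strain OP62, which carries the mutation unc-119(ed3) III and the transgene wgIs62, and LIN-11 bore a C-terminal GFP-FLAG tag. Late embryos labelled 4.25 hour, of mixed sex and obtained by egg bleaching, were used whole, their chromatin was broken by sonication, and an anti-GFP antibody pulled down the tagged LIN-11. Each value is therefore an average over every embryonic cell type, and no condition was compared with another. LIN-11 came from a transgene in a single strain, and no list from untagged embryos was used here.

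Hox proteins set positional identity along the body axis, and TALE proteins of the Pbx (extradenticle) and Meis (homothorax) families are partners that bind DNA with them. POU and paired-like proteins are known in the worm mainly as selectors of the identities of single neuron types, often in pairs with LIM homeodomain proteins. The best known pair joins the POU factor UNC-86 with the LIM factor MEC-3 in touch receptor neurons.

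The authors deposited 4 lists of regions that were used. The pooled list, made from both replicates together, held 20692 regions including background, the list of replicate 1 held 21441, that of replicate 2 held 18735, and 560 regions passed the authors' test of reproducibility between replicates. All 560 were the strongest 560 of the pooled list. A region was given to a gene when its summit fell in the window, which is the gene body plus 5 kb upstream of any transcription start site (TSS). Ranks are by the authors' signal value within 1 list, with 1 the strongest, since the deposited notes leave the scale of that value unstated.

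Sequences around the summits of several members described below are shown first, 50 bp either side of the summit in the gene's own direction, in ce11 coordinates, with sequence from RefSeq's copy of the assembly. They are the strongest places that both replicates listed at ceh-39, hbl-1, ttx-1, zag-1, vab-7 and the Hox genes egl-5 and mab-5. Capitals mark the hexamer GAGAGA at mab-5, the hexamer CACCTG at zag-1, and the bases of a tRNA-Glu gene at ceh-39.
ceh-39, chrX:1858818-1858918, minus strand: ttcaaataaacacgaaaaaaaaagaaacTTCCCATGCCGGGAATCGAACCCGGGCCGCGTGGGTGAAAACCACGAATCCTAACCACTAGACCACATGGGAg
hbl-1, chrX:5821057-5821157, plus strand: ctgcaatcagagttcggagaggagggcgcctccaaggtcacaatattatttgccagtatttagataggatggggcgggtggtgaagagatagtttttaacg
ttx-1, chrV:20063893-20063993, minus strand: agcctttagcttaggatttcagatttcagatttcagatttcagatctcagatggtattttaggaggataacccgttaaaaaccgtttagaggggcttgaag
zag-1, chrIV:3856295-3856395, plus strand: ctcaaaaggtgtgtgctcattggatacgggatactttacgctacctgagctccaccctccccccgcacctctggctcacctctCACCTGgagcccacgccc
egl-5, chrIII:7814049-7814149, plus strand: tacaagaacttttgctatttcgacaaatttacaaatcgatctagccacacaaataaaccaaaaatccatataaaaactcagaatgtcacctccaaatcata
mab-5, chrIII:7781009-7781109, minus strand: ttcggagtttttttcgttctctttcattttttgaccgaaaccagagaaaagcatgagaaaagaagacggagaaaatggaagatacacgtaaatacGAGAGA
vab-7, chrIII:10917184-10917284, plus strand: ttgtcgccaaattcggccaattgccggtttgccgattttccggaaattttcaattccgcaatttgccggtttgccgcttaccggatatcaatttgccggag

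The tRNA gene at ceh-39 lies on the plus strand, so its 72 bases appear above as the reverse complement. The GC content of the printed stretch was 60.4% at zag-1 and 30.7% at egl-5. RefSeq soft-masks, that is, writes as repeats or low-complexity sequence, 91.1% of the bases around the vab-7 summit and 0% around those of hbl-1 and zag-1.

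Only 2 of the 86 genes, ceh-39 and unc-62, had a reproducible region in their window (2.33%, exact Clopper-Pearson 95% interval 0.283 to 8.15), while 4.7% of all protein-coding genes did. Weak entries were common. A pooled-list region lay in the windows of 64 members (74.4%, 63.9 to 83.2), against 67.1% of all genes, a replicate 1 region in those of 66 members (76.7%, 66.4 to 85.2), against 69.7%, and a replicate 2 region in those of 64 members (74.4%), against 68.1%. A pooled-list region overlapped by a region of both replicates lay in the windows of 30 members (34.9%, 24.9 to 45.9), against 37.9% of all genes. Regions of both replicates at any place in the window, not necessarily the same one, were found for 53 members (61.6%, 50.5 to 71.9), against 55%. Both intervals for listing in both replicates include the share of all genes. The intervals cover counting error over genes only, and read depth is unknown from lists of regions.

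When the overlapping region also had to be among the strongest 560 of each replicate, 1 member remained, ceh-39 (1.16%, 0.0294 to 6.31), against 3.47% of all genes. With the strongest 1000 of each replicate unc-62 was added, making 2 members (2.33%), against 4.82% of all genes. With the strongest 2000 ceh-38 and hbl-1 were added, making 4 (4.65%), against 6.71%, and with the strongest 5000 ceh-5 and ceh-18, making 6 (6.98%), against 12.5%. No Hox gene was reached in these steps. The members nearest to the end of the reproducible list, at pooled rank 560 and signal 117, were ceh-39 at rank 206 and unc-62 at rank 420 inside it. Outside it stood ceh-5 at rank 727, hbl-1 at rank 783, ttx-1 at rank 963 and ceh-38 at rank 1005, with signals of 104 to 90.9.

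**Figure D1:**
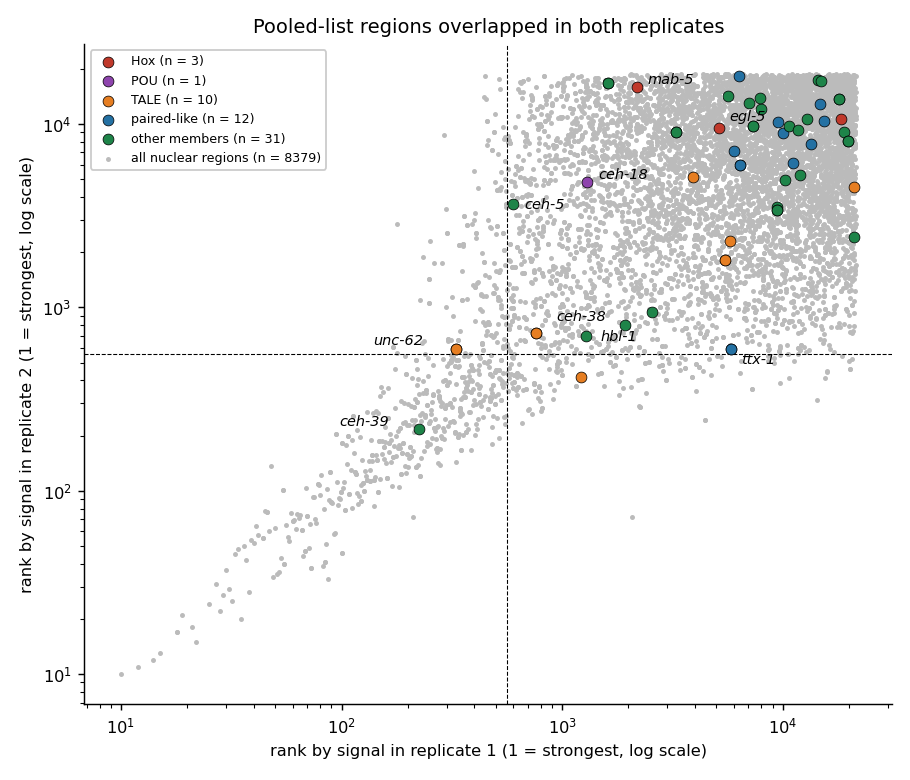
Each point is a pooled-list region that both replicates overlapped, with its rank by the authors' signal in replicate 1 (horizontal, log scale) and in replicate 2 (vertical, log scale). Coloured points are the 57 regions in the homeobox genes' windows, by class, grey points all 8379 such nuclear regions, and dashed lines mark rank 560. Among the coloured points, only the ceh-39 region, at ranks 225 and 216, lies inside rank 560 on both axes.

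In that plot of replicate ranks, the 57 regions of the homeobox genes had a Spearman's rho of 0.43 between replicates, and all 8379 nuclear regions listed in both had 0.36. These values are descriptions across regions over lists that share 1 control. In both sets, pooled-list entries that overlap the same replicate regions enter more than once with the same ranks, so the points are not independent. For single members the ranks could lie far apart. The mab-5 region ranked 2188 in replicate 1 and 15868 in replicate 2, and the vab-7 region ranked 1617 and 16644.

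The strongest region of the set belonged to the window of ceh-39 (WBGene00000460, chromosome X, 1853874 to 1856172, minus strand), a CUT-class gene of the ONECUT type known as one of the X-linked signals that report X dose in sex determination. The region, chrX:1858653-1859082, ranked 206 in the pooled list with a signal of 219. It ranked 225 in replicate 1 (signal 123) and 216 in replicate 2 (signal 91.4). Its summit lay 2696 bp upstream of ceh-39, inside the tRNA-Glu gene T26C11.t1 (1858819 to 1858890), and the nearest protein-coding TSS was that of T26C11.8, 1854 bp away. The other regions of the ceh-39 window, 144 and 887 bp upstream, ranked 2944 and 11931 and were listed in replicate 2 only (ranks 2208 and 9910). Without summits at small RNA genes, ceh-39 had no reproducible region, and unc-62 was then the only member with one. Which gene, if any, the ceh-39 region acts on was not tested.

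The neighbours of ceh-39 on chromosome X are the CUT-class genes ceh-21 and ceh-41, and their windows share regions. ceh-21 had 5 pooled-list regions and ceh-41 had 3, with best ranks of 2944 and 8332, and none was overlapped in both replicates. The ceh-21 summit at rank 2944 is the same region as the one 144 bp upstream of ceh-39. Elsewhere in the CUT class, ceh-38, another gene of the ONECUT type, had a region near its start (chrII:6951462-6951891) at pooled rank 1005, with rank 1934 in replicate 1 and 801 in replicate 2. ceh-48, known as a pan-neuronal regulator, had 2 regions of best rank 4868, both in replicate 1 only, and ceh-49 had no pooled-list region and 1 region of replicate 2 at rank 16961.

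TALE genes held the most densely listed member. unc-62 (WBGene00006796, chromosome V, 4497461 to 4511449, plus strand), the Meis homologue and a Hox cofactor, had 16 pooled-list regions in a window of 19 kb, of which 9 were overlapped in both replicates. Pooled-list entries overlap each other, and after merging there were 13 places, 6 of them in both replicates. Its reproducible region, chrV:4499088-4499517, ranked 420 in the pooled list (signal 143), 332 in replicate 1 (signal 97.6) and 596 in replicate 2 (signal 53.7). The summit lay 24 bp upstream of an internal TSS and 1842 bp downstream of the first of the 15 annotated TSSs of the gene.

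Further unc-62 regions stood just below the reproducible list. One 2133 bp upstream of the first TSS ranked 566 in the pooled list with a signal of 116, and 765 and 724 in replicates 1 and 2. One at 10549 bp downstream, in an annotated UTR of a transcript, ranked 714, with 1214 in replicate 1 and 419 in replicate 2. A region 30 bp upstream of the first TSS ranked 2632, with 5780 and 2287 in the replicates. Long windows hold more regions, so unc-62 was also placed among the 993 windows over 15 kb. Its 16 regions were more than in 96.2% of these (median 5), its 9 regions in both replicates more than in 97.3% (median 2), and its density of 8.43 regions per 10 kb above 99.6% (median 2.43). Among all protein-coding genes, 99.8% had fewer than 16 regions (median 1). zfh-2, a large zinc finger homeobox gene without a ceh- number and outside the set, had 21 regions, 7 of them in both replicates, with a best rank of 955.

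The PBC genes, which encode Pbx-type partners, were listed weakly. ceh-20, the main extradenticle homologue, had 3 regions, of which 1, 906 bp upstream, was in both replicates, at pooled rank 5124, replicate 1 rank 3928 and replicate 2 rank 5159. ceh-60 had 1 region, in an intron 7127 bp from its TSS, at pooled rank 8491. Replicate 2 listed it at rank 1679 and replicate 1 did not list it, while the only replicate 1 region of ceh-60 (rank 19399) lay 4153 bp upstream. ceh-40 had no pooled-list region and 2 replicate 2 regions, the better at rank 13337.

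**Figure D2:**
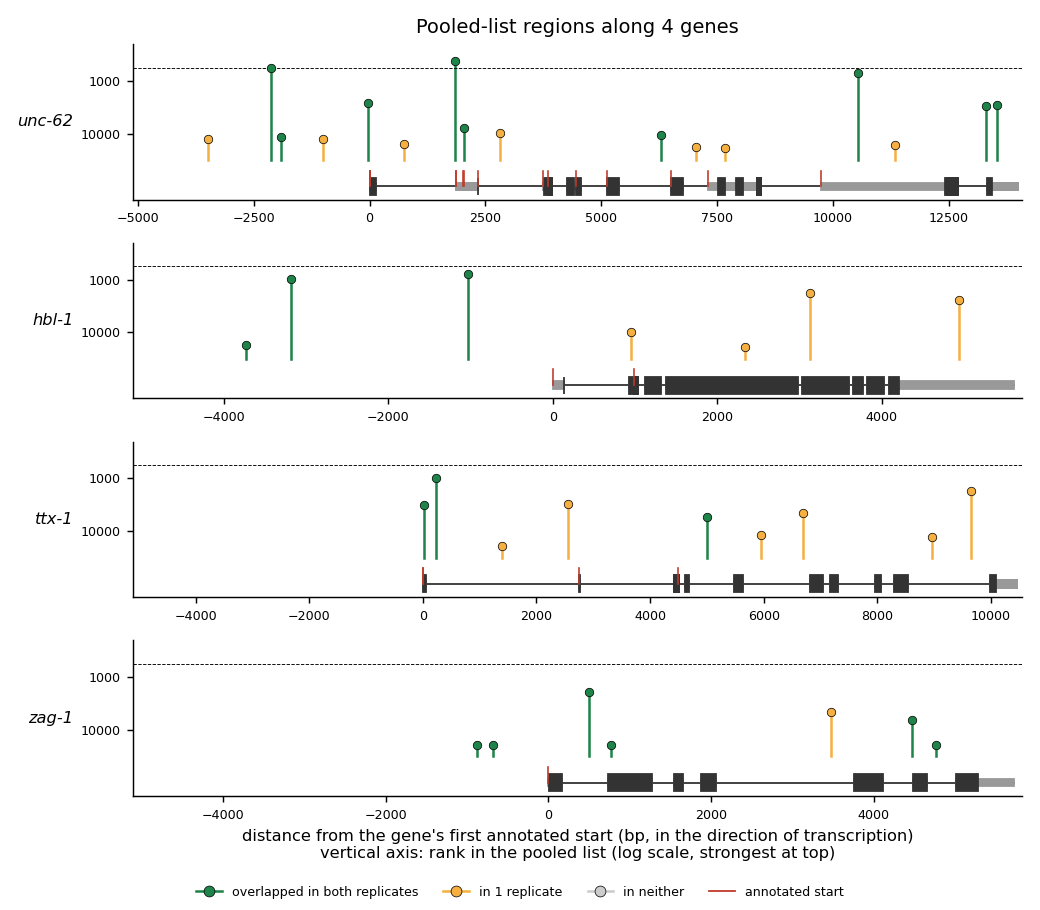
Pooled-list regions along unc-62, hbl-1, ttx-1 and zag-1, by distance from the first annotated start in bp (horizontal) and rank in the pooled list (vertical, log scale, strongest at top, dashed line at 560). Green marks regions overlapped in both replicates, orange those in 1, and the gene model shows coding exons in black, UTRs in grey and annotated starts as red ticks. Among these, the unc-62 region 1842 bp downstream of the first start is the only one above the line.

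All 6 Hox genes had at least 1 region in the pooled list and in each replicate, and 3 of them had a region that both replicates listed at the same place. Over all protein-coding genes the shares were 67.1% for the pooled list, 69.7% and 68.1% for replicates 1 and 2, and 37.9% for the same place, and Hox windows were longer, with a median of 9.93 kb against 7.02 kb. Those 3 were egl-5, mab-5 and ceh-13, and no Hox region was reproducible. The best pooled ranks ran from 2510 to 17406 (median 8522), against a median of 6213 over the 13395 protein-coding genes with a region, where a higher number is weaker. Summed over the 6 windows there were 2.01 regions per 10 kb, and over all genes 2.01.

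egl-5 (WBGene00001174, chromosome III, 7814374 to 7817141), an Abdominal-B-type gene of the tail, had the best pooled rank among Hox genes, for chrIII:7813884-7814313, 275 bp upstream of its TSS. It ranked 2510 in the pooled list, 5145 in replicate 1 and 9512 in replicate 2. A region 1866 bp upstream ranked 7576 and was in replicate 2 only, at rank 2882. mab-5 (WBGene00003102), an Antennapedia-type gene of the posterior body known for its part in neuroblast migration, had an intronic region, chrIII:7780844-7781273, at pooled rank 3161. In replicate 2 a different place in the mab-5 gene body, 1371 bp from the TSS, was the stronger one, at rank 6039. ceh-13 (WBGene00000437), the labial homologue of the anterior body, had a region 1213 bp upstream at pooled rank 6997, with weak ranks of 18476 and 10652 in replicates 1 and 2.

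lin-39 (WBGene00003024), the Hox gene of the mid-body and of vulval precursor cells, was listed in both replicates but at different places. Replicate 1 had a region in an intron, at rank 1923 (signal 47.7), which the pooled list held at rank 10047 and replicate 2 did not list. The 4 replicate 2 regions of lin-39 began at rank 14756, with that best one 62 bp upstream of a TSS. The posterior genes nob-1 and php-3 are neighbours, and their windows overlap. php-3 had 1 pooled-list region, in an intron, at rank 13817, which replicate 1 listed at rank 13241 and replicate 2 did not. nob-1 had 1, 25 bp from its TSS, at rank 17406, which neither replicate listed. The best replicate 1 region of both genes (rank 11571) is the same region, and so is their replicate 2 region (rank 10341).

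**Figure D3:**
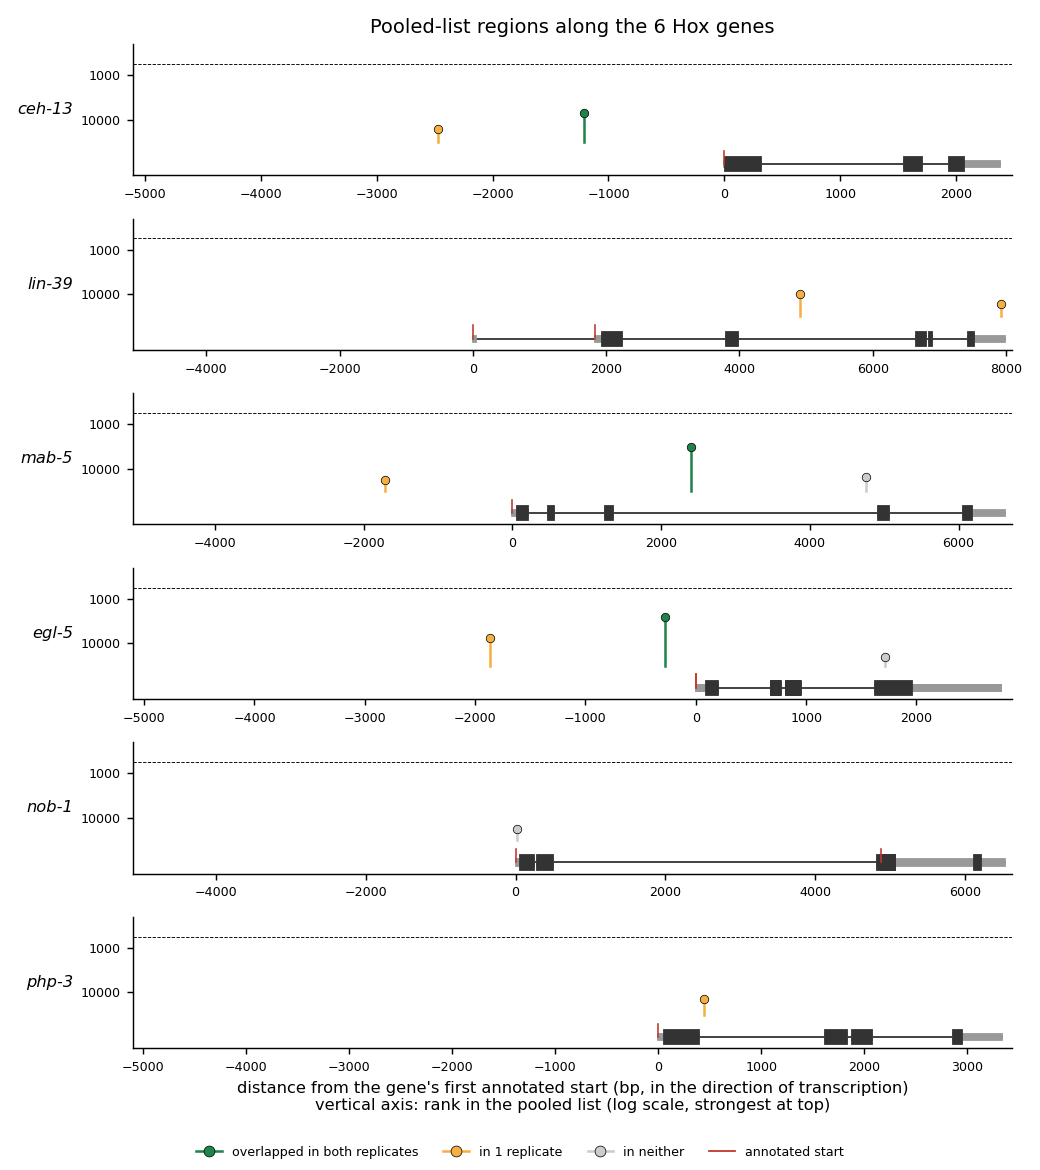
Pooled-list regions along the 6 Hox genes, by distance from the first annotated start in bp (horizontal) and rank in the pooled list (vertical, log scale, strongest at top, dashed line at 560). Green marks regions overlapped in both replicates, orange those in 1 and grey those in neither. One region each of ceh-13, mab-5 and egl-5 is green, and none lies above the line.

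POU genes gave 1 region in both replicates, in 1 of the 3 genes, against 37.9% of all protein-coding genes with such a region. ceh-18 (WBGene00000441, chromosome X), known from the sheath cells of the gonad and the control of oocyte maturation, had an intronic region, chrX:3850669-3851098, at pooled rank 1699, with rank 1303 in replicate 1 and 4803 in replicate 2. Its other 3 pooled-list regions were in replicate 1 only. ceh-6, known from the excretory and rectal cells, had 1 region 296 bp from its TSS at pooled rank 12755, which replicate 2 listed at rank 1990 and replicate 1 did not list. unc-86, the selector of touch receptor and other neuron identities, had no pooled-list region, and a single replicate 1 region in an intron at rank 11185.

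Of the 16 paired-like genes, 12 had a pooled-list region, against 67.1% of all genes, and 7 had one in both replicates, against 37.9%. These 7 were ttx-1, alr-1, vab-3, dsc-1, ceh-53, ceh-45 and ceh-54. ttx-1 (WBGene00006652, chromosome V), the Otx-type selector of the thermosensory neuron AFD, led with pooled rank 963 for a region in its first intron, 231 bp from a TSS. The replicates differed there, with rank 5813 in replicate 1 and 592 in replicate 2. A second ttx-1 region overlaps the same replicate regions at pooled rank 3196, so the 9 listed regions of ttx-1 merge to 8 places.

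alr-1, the aristaless homologue known from sensory neurons, had a region in a coding exon near its start at pooled rank 2288, with 6425 and 5970 in replicates 1 and 2. vab-3, the Pax6 homologue, had 9 regions in 24.7 kb, of which 2 were in both replicates, both intronic, at pooled ranks 3116 and 5015. The best regions in both replicates of dsc-1, which acts in the defecation rhythm, and of ceh-53, ceh-45 and ceh-54 ranked 6083 to 12261. Regions that no more than 1 replicate overlapped were all that the pooled list held at ceh-8, ceh-17, ceh-36, ceh-37 and unc-30, with best ranks of 4811 to 20065. unc-30 is the selector of GABA motor neurons, ceh-17 the Phox2 homologue, and ceh-36 and ceh-37 are Otx-type genes of sensory neurons. unc-4, unc-42, eyg-1 and ceh-10 had no pooled-list region. Among them, unc-42 had a region in each replicate, at ranks 17319 and 18307 and at different places. unc-4 and ceh-10 were listed in replicate 2 only, and eyg-1 in replicate 1 only. Of these, unc-4 and unc-42 act in motor neurons and interneurons of the motor circuit, and ceh-10 is the partner of the LIM gene ttx-3 in the interneuron AIY.

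**Figure D4:**
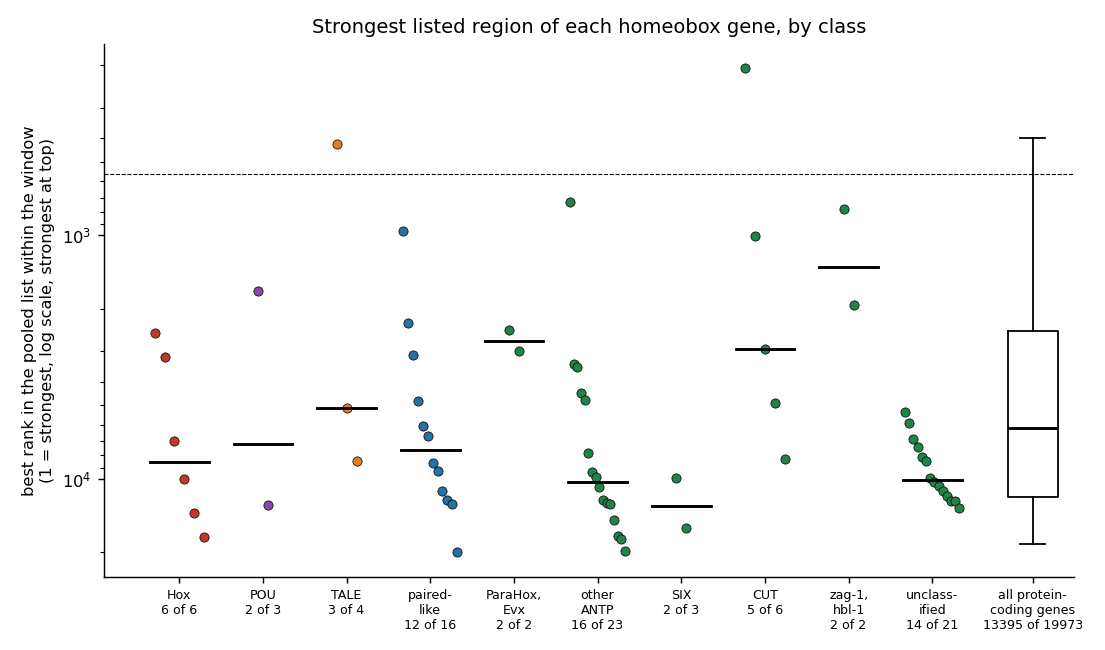
Best pooled-list rank in the window of each homeobox gene (points, log scale, strongest at top), by class with the number of genes listed of the number in the class, horizontal bars at medians. The box at the right shows all protein-coding genes with a listed region (median 6213, quartiles, whiskers at percentiles 5 and 95), and the dashed line marks rank 560. ceh-39 (CUT) and unc-62 (TALE) are the only points above the line.

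The plot of best ranks by class also holds the posterior patterning genes. pal-1, the caudal homologue of the posterior embryo, had a region 2718 bp upstream at pooled rank 2458, with 5668 and 14153 in the replicates, and its nearest TSS was that of C38D4.7, at 999 bp. A second pal-1 region, 3840 bp upstream in the body of arl-6, was also in both replicates, at pooled rank 8404. vab-7, the even-skipped homologue, had the region printed above, 3110 bp upstream, at pooled rank 2975. A second vab-7 region in both replicates overlaps the same replicate regions.

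The zinc finger genes named with the set were listed repeatedly. zag-1, the ZEB homologue, which acts in neuron differentiation, had 7 regions, of which 6 were in both replicates. Merged, these made 4 places, with 3 in both replicates. The strongest, in an intron 502 bp from the TSS, ranked 1925 in the pooled list, 3296 in replicate 1 and 9019 in replicate 2. hbl-1, a regulator of larval timing, had 7 regions, with 3 in both replicates, all of them upstream. Those 1035 and 3186 bp upstream ranked 783 and 979 in the pooled list, and their replicate ranks were 1282 and 701, and 2566 and 939. A reproducible region (chrX:5812083-5812512, pooled rank 370) lay 9844 bp upstream of hbl-1, outside the 5 kb limit. Its nearest protein-coding TSS was that of F13D11.3, at 6376 bp.

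Among the remaining members, those with the best-ranked regions in both replicates were ceh-5, ceh-63, ceh-62, ceh-2 and ceh-74. The ceh-5 region ranked 727 in the pooled list, with 601 and 3669 in replicates 1 and 2. It lay 4698 bp upstream of ceh-5, in the body of ocrl-1 and 245 bp from the TSS of eat-16. Likewise the ceh-63 region (pooled rank 3377) was 4783 bp upstream and 284 bp from the TSS of tag-52. The ceh-62 region (rank 3464) was intronic and nearest to ceh-62 itself. The ceh-2 region (rank 4747), 716 bp upstream of this gene of the empty spiracles type, lay at a tRNA-Leu gene, and ceh-74 followed at rank 7407. For 134 of the 175 distinct regions in the homeobox windows (76.6%), the nearest protein-coding TSS was that of a homeobox gene of the set. The windows are built around these genes, so a high share is partly built in, and the like share for other genes was not worked out. Of the 175 regions, 8 stood in the windows of 2 members.

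Of the 23 other genes of the ANTP class, 16 had a pooled-list region, against 67.1% of all genes, and 5 had one in both replicates, against 37.9%. ceh-43, the Distal-less homologue, had 4 regions of best rank 4451, each in 1 replicate only. cog-1, an Nkx6-type gene, had 3 regions of best rank 9791 and ceh-16, the engrailed homologue, had 3 of best rank 12739, in both cases with no place shared by the replicates. pha-2, a Hex-type gene of the pharynx, had 1 pooled-list region at rank 12607 that neither replicate listed. Of 3 genes of the sine oculis type, ceh-33 had a region in both replicates, at pooled rank 15932. ceh-32 had 2 regions of best rank 9960 with no shared place, and ceh-34 had none in the pooled list. The 21 members left unclassified, mostly ceh- genes of high number, had 14 listed in the pooled list and 5 in both replicates, with best ranks of 5312 to 13205.

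No region of any list lay in the windows of 8 members, ceh-1, ceh-19, ceh-22, ceh-23, ceh-75, ceh-76, ceh-79 and ceh-84. ceh-22 is the Nkx2-5-type gene of pharyngeal muscle. Replicate 1 listed nothing for these 8 and for ceh-6, ceh-7, ceh-8, ceh-10, ceh-27, ceh-28, ceh-40, ceh-49, ceh-88, pha-2, unc-4 and vab-15, 20 in all. Replicate 2 listed nothing for the 8 and for ceh-31, ceh-36, ceh-48, ceh-81, ceh-82, ceh-83, ceh-87, ceh-93, ceh-100, eyg-1, mls-2, pha-2, tab-1 and unc-86, 22 in all. The pooled list also lacked 22 members. Listed were thus 76.7% of the members in replicate 1, 74.4% in replicate 2 and 74.4% in the pooled list. Among all protein-coding genes these shares were 69.7%, 68.1% and 67.1%. The share of all genes absent from every list was not worked out. An unlisted gene shows only that no region was called in its window, and the depth behind that is unknown.

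Window length moved with being listed. The median window was 8.28 kb for the homeobox genes and 7.02 kb for all protein-coding genes. Among windows under 7.5 kb, 8 of 32 members (25%) and 29.1% of all genes had a pooled-list region in both replicates. Between 7.5 and 10 kb the shares were 11 of 34 (32.4%) and 42.8%, between 10 and 15 kb 7 of 14 (50%) and 58.4%, and over 15 kb 4 of 6 (66.7%) and 75.8%. The members' share was thus lower than that of all genes in each of the 4 ranges, by amounts that lie within the counting intervals drawn for the members. Over all lengths together, the order turned when a summit counted only for the gene of the nearest TSS. Then 25 of the 86 members (29.1%) and 22.3% of all genes were listed in both replicates. Of the members, 21 had 1 pooled-list region, 15 had 2, 16 had 3, and the others with any had 4 to 16. The same counts over all genes were not worked out. Summed over the windows there were 2.35 regions per 10 kb for the members and 2.01 for all genes. The median density was 1.54 regions per 10 kb for the members and 1.54 for all genes, but 1.86 and 1.34 with 2 kb upstream, and 0.895 and 0 with the gene body only. The median best rank was 8397 for listed members and 6213 for all listed genes, which is 40.6% and 30% of the way down the pooled list. From replicate 2 alone, without replicate 1, these medians were 34.6% and 32.4% of the list, closer together than the SD of 3.76 between the replicates' values for the members. From replicate 1 alone they were 39.9% and 30.2%, further apart than that SD, which rests on 2 values.

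**Figure D5:**
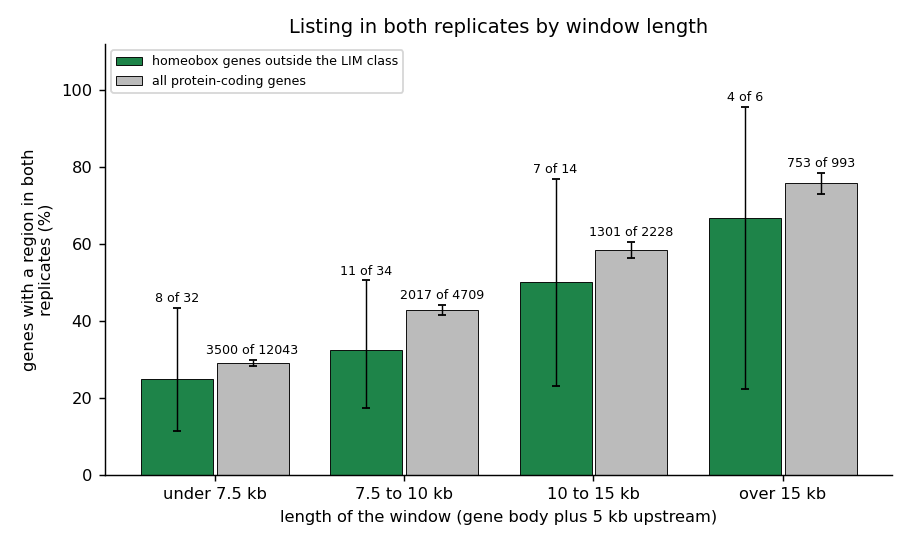
Share of genes with a pooled-list region overlapped in both replicates (%), by length of the window, for the homeobox genes (green, left) and all protein-coding genes (grey, right), with the counts above the bars. Error bars are exact Clopper-Pearson 95% intervals, which cover counting error only. Both shares go up with window length, to 66.7% and 75.8% over 15 kb.

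The regions themselves were compared with the whole pooled list. In homeobox windows, 57 of 175 distinct regions (32.6%) were overlapped in both replicates, against 8379 of 20670 nuclear regions (40.5%). A further 59 were in replicate 1 only, 47 in replicate 2 only and 12 in neither. The median pooled rank was 11931 in the homeobox windows and 10356 over all, and 13 regions (7.43%) and 9.57% stood within rank 2000. Small RNA genes were within 200 bp of 2 regions (1.14%), those of ceh-39 and ceh-2, against 2.89% of all regions. The median GC content within 50 bp of the summit was 38.6% in homeobox windows and 37.6% over all. At least 50% of those bases were soft-masked in 43 regions (24.6%), against 31.1%.

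By place, 34 of the 183 pairs of a member and a region (18.6%) lay within 1000 bp upstream of one of its TSSs, against 21.2% over all genes. Further upstream lay 63 (34.4%), against 45.4%, in introns 53 (29%), against 20.4%, in coding exons 19 (10.4%), against 8.66%, and in UTRs 14 (7.65%), against 4.27%. The windows themselves differ, since introns make up 24.9% of the bases in homeobox windows and 19% in those of all genes. Per 10 kb of intron there were 2.74 regions in the homeobox genes and 2.16 in all genes, and per 10 kb of the 1000 bp upstream 2.77 and 2.86. Coding exons held 2.3 regions per 10 kb in the homeobox genes and 1.19 in all genes. Over regions in both replicates, the coding exon values were 0.849 (7 regions) and 0.384. The intron values were then 0.671 (13 regions) and 0.807, the other way round from those over all listed regions. In the other places the members' values were also lower. They were 0.896 and 1.4 in the 1000 bp upstream, 0.64 and 0.763 further upstream, and 1.11 and 1.31 in UTRs.

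Short sequence words known from homeodomain sites were searched for on either strand in the 50 bp on each side of every summit. TAATTA, the common homeodomain core, was at 9 of the 175 regions (5.14%), against 4.48% of all nuclear regions. TAATTG was at 12 (6.86%), against 7.02%, and TGACAG, a Meis-type word, at 9 (5.14%), against 2.96%. TGATTGAT, a Hox and Pbx word, was at 1 (0.571%), against 0.532%, and ATGCAAAT, the POU octamer, at 1 (0.571%), against 0.822%. Of the words chosen after the sequences were seen, GAGAGA was at 10 (5.71%), against 9.34%, and CACCTG at 8 (4.57%), against 2.6%. Among the 57 regions in both replicates GAGAGA was at 7 (12.3%), against 11.5%, TAATTA at 1 (1.75%), against 4.09%, and TAATTG at 5 (8.77%), against 6.53%. In the same 57, TGACAG was at 4 (7.02%), against 3.01%, and CACCTG at 1 (1.75%), against 2.51%, the other way round from its shares over all 175. TGATTGAT and ATGCAAAT were at 0 of the 57, against 0.501% and 0.883%. These are matches of letters in a window, at counts of 0 to 12.

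For LIM homeobox genes, the class of lin-11 itself, 3 of 7 had a pooled-list region in both replicates and 1, lin-11, had a reproducible one. Tagged LIN-11 came from a transgene, and whether the lin-11 regions reflect the transgene or the gene's own place was not tested. Of 10 homeobox genes without a ceh- number outside the set, 6 had a region in both replicates and none a reproducible one, with pros-1, the prospero homologue, best at rank 651. Regulators of Hox genes of the Polycomb and trithorax type had 5 of 7 in both replicates, and sor-3 had a reproducible region at rank 75. Over all protein-coding genes, 37.9% had a region in both replicates and 4.7% a reproducible one. The median windows of these gene lists were 9.34 to 9.96 kb, against 7.02 kb for all genes. With 7 to 10 genes a list, the differences from the 30 of 86 members were not tested.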

How the data were processed

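Chromatin immunoprecipitation and sequencing of tagged LIN-11 gave 2 biological replicates of 1 group. Per the deposited notes, the lists are narrowPeak files on ce11, those of each replicate and of both pooled derive from alignments and 1 shared control, and the reproducible list derives from these by the irreproducible discovery rate. The aligner and the peak caller with its settings were not given in the sources used here. The authors' signal value per region was used only to rank regions within a list. No region ran past a chromosome end of WBcel235, the same assembly, and mitochondrial regions were left out.

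Gene models came from Ensembl release 115 and sequence from RefSeq. A summit in a window counted for every gene whose window held it, and a region was in both replicates when each replicate's list overlapped it by at least 1 bp. Genes were named by class, by a reproducible region, by best rank in both replicates (10 genes beyond the classes) or by absence from a list. The members and lists were chosen with earlier results of these data known, so no test was run over them. Assignment was tested on simulated summits, and alternatives are described in the closing section. Python 3.11.15, numpy 2.4.6, scipy 1.17.1 and matplotlib 3.10.9 were used.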

Additional observations from a re-analysis of the deposited data

How the results depend on the processing

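The count of members with a reproducible region was 1 (unc-62) with 2 kb upstream (3.13% of all genes), the gene body only (0.931%), 1000 bp either side of a TSS (2.1%), no summits at small RNA genes (2.9%) and the nearest TSS only (2.16%). With the gene body only, the members' 1.16% was above the share of all genes. Members with a strongest region in both replicates then numbered 0. In the higher-signal part of the reproducible list 1 member, ceh-39, remained (2.28% of all genes). With 10 kb upstream 6 had a reproducible region (adding ceh-21, hbl-1, ceh-8 and ceh-20; 7.14%), and 5 a strong one in both replicates (5.23%). With the strongest 1000 or 2000 regions of each replicate, 2 or 4 members had one (4.82% and 6.71%). Listing in both replicates covered 14 members (16.3%) with the gene body only, against 14.2% of all genes, 13 (15.1%) within 1000 bp of a TSS, against 18.6%, 24 (27.9%) with 2 kb, against 27.6%, and 25 (29.1%) with the nearest TSS only, against 22.3%. The members' share was thus above that of all genes in 3 of these and below it in the main setting. It was also below it with 10 kb upstream (47.7% against 51.3%) and without summits at small RNA genes (32.6% against 36.2%). The same held for any overlap with the window (34.9% against 39.4%) and for an overlap of 50% of both regions (30.2% against 34.5%). From replicate 2 alone 64 members were listed (74.4%, against 68.1% of all genes), and from replicate 1 alone 66 (76.7%, against 69.7%). Those with a strong region numbered 2 from either replicate (2.33%), against 4.61% of all genes from replicate 2 and 4.65% from replicate 1. The median best rank from 1 replicate alone was 34.6 to 39.9% of the list (32.4 and 30.2% over all genes). It was 47.5% with 2 kb (34.2%), 48.3% with the gene body (42.6%), 35.3% with 10 kb (24.5%) and 52.2% within 1000 bp of a TSS (38.2%). Regions per 10 kb for members and all genes were 1.86 and 1.34 with 2 kb, 0.895 and 0 with the gene body, 1.82 and 1.68 with 10 kb, 0 and 0 within 1000 bp of a TSS, and 1.21 and 0 with the nearest TSS only. Leaving out hbl-1, counting any overlap with the window, asking for an overlap of 50% of both regions, or merging overlapping regions (chosen after seeing the data) left the values computed there within their limits of change. No paired analysis was possible because the series has 1 group. Depth is unknown from lists of regions.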
